A study of Mus musculus with 12 samples.

Results

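Transcripts of 10 cytosolic heat shock chaperones were followed in C2C12 cells, a mouse muscle line, under hydrogen peroxide and the ginsenoside Rc (gRc). The members were taken by gene symbol: Hspa1a, Hspa1b and Hspa8 of the HSP70 family, Hsph1 of the HSP110 family, Hsp90aa1 and Hsp90ab1 of the HSP90 family, the J-domain protein Dnajb1, and the small heat shock proteins Hspb1, Hspb8 and Cryab. All 10 were found among the 48795 genes of the count tables, each as 1 Ensembl gene, and all 10 were among the 14838 genes that passed the filter on low counts. On GRCm38, Hspa1a at chr17:34969190-34972156 (minus strand), Hspa1b at chr17:34956436-34959238 (minus strand) and Hsp90ab1 at chr17:45567775-45573271 (minus strand) share a chromosome, as do Hspb1 at chr5:135887919-135889563 (plus strand), Hspb8 at chr5:116408491-116422864 (minus strand) and Hsph1 at chr5:149614287-149636376 (minus strand). The others are Hspa8 at chr9:40800984-40810087 (plus strand), Cryab at chr9:50751325-50756636 (plus strand), Hsp90aa1 at chr12:110690605-110702728 (minus strand) and Dnajb1 at chr8:83608193-83612653 (plus strand).

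Cytosolic chaperones bind unfolded protein and hold it soluble, refold it or pass it to degradation. HSP70 proteins cycle on and off their clients with ATP, J-domain proteins such as Dnajb1 deliver clients and start ATP hydrolysis, HSP110 proteins exchange the nucleotide, HSP90 proteins act late on signalling proteins, and small heat shock proteins hold unfolded protein without ATP. Under heat or other protein damage, heat shock factor 1 induces Hspa1a, Hspa1b, Dnajb1, Hsph1, Hsp90aa1 and Hspb1, while Hspa8 and Hsp90ab1 are the family members made at high level in unstressed cells, and Hspb8 and Cryab are abundant in muscle, where they guard the contractile apparatus.

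Poly(A)-selected RNA of 12 libraries was sequenced as pairs of 100 bp reads, 3 libraries in each of 4 groups. The gRc + H2O2 group had 10 µM gRc for 18 h and then 0.25 mM H2O2 for 6 h, although a tag on these libraries reads 24 h for the pretreatment. The H2O2 group had vehicle for 18 h and then 0.25 mM H2O2 for 6 h, the gRc group had 10 µM gRc for 24 h, and the vehicle group had 0.02% DMSO, the solvent of gRc, for 24 h. All groups are of 1 cell line, and the labels do not say whether replicates were separate cultures, so each p-value reflects only how far apart these 12 libraries lay, and part of that may be technical.

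The growth protocol gives 5 days of differentiation while the cell-type tag reads myoblasts. Markers of differentiated myotubes were abundant in every group: the 11 listed genes together held 22220 to 29230 TPM (transcript abundance per length, scaled to the same total in each library) in gRc + H2O2 libraries, 20510 to 31120 TPM in H2O2 libraries, 23430 to 33750 TPM in gRc libraries and 22630 to 32160 TPM in vehicle libraries. In vehicle, the myogenic factor Myog stood at 1110 ± 412 CPM (counts scaled to library size), the embryonic myosin Myh3 at 4540 ± 1530, Acta1 at 3030 ± 1740 and Ckm at 440 ± 95.8 CPM, against 70 ± 31.3 CPM for the proliferation marker Mki67 and 101 ± 17.5 CPM for Top2a (SD, n = 3). Total counts were 19274762 to 31409066 per library. Vehicle replicates 1 and 3 and gRc replicate 3 stood apart in the share of mitochondrially encoded genes. Mitochondrially encoded genes took 4.53% of the counts in gRc replicate 3, 4.52% in vehicle replicate 3 and 0.1% in vehicle replicate 1, with 0.538 to 3.15% in the other 9 libraries. The log2 difference between the tenth of genes with the lowest GC content and the tenth with the highest, relative to its mean over the libraries, was 0.53 in gRc replicate 3, 0.43 in vehicle replicate 3 and -0.89 in vehicle replicate 1. The other 9 libraries ran from -0.36 (H2O2 replicate 3) to 0.44 (gRc + H2O2 replicate 2). Vehicle replicate 3 was therefore within their range in this measure.

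Per transcript length, the constitutive members were the most abundant. Over the 12 libraries, Hsp90ab1 had a median of 3070 TPM (range 1760 to 3390) and Hspa8, the constitutive HSP70, a median of 2190 TPM (1360 to 2760), with Hsp90ab1 the higher in 10 of 12 libraries. Hsp90aa1, the inducible HSP90, followed at 1200 TPM (326 to 2380). Hspb1 stood at 956 TPM (738 to 1440), below Hsp90aa1 in 8 of 12 libraries, so that the order of these neighbours was not fixed. Cryab at 504 TPM (223 to 1130) exceeded Hspb8 at 358 TPM (199 to 627) in 8 of 12 libraries. Hsph1 stood at 137 TPM (65.2 to 149). The inducible HSP70 genes were far lower: Hspa1b stood at 35 TPM (26.7 to 53.8) and Hspa1a at 6.56 TPM (5.14 to 7.88), with Dnajb1 between them at 25.8 TPM (15.1 to 36.9). Hspb8 exceeded Hsph1, Hsph1 exceeded Hspa1b and Dnajb1 exceeded Hspa1a in all 12 libraries, while Hspa1b exceeded Dnajb1 in 8 of 12. Together the 10 members took 0.951 to 1.03% of the counts in gRc + H2O2 libraries, 1.02 to 1.08% in H2O2 libraries, 0.679 to 0.928% in gRc libraries and 0.725 to 0.910% in vehicle libraries. The effective length that the counting gave Hspa8 ran from 711 to 1528 bases over the libraries, that of Hsp90aa1 from 1564 to 2605 and that of Hsph1 from 2026 to 2903. TPM takes this length into account and CPM does not. Groups are compared on CPM, so for these genes the 2 measures can differ. With H2O2 against vehicle, the log2 fold change of Hspa8 was -0.01 in the main fit and -0.24 in a limma fit on log2 TPM.

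The upstream sequence of the members was read for heat shock elements, which are repeats of the unit GAA in alternating direction. The RefSeq promoter table (GRCm38.p6) matched 6 of the 10 members: Hspa1a, Hspa1b, Hsph1, Dnajb1, Hspb1 and Hspb8. The 250 bases before the start of 4 of them are shown, 5′ to 3′ on the strand of the gene, because they set the only member that rose with H2O2 (Hspb8) beside 3 classical heat shock genes of different families. Capitals mark GAANNTTC or TTCNNGAA, the pairs of units, each of which reads the same on both strands and may share 3 bases with the other. Hspb8 lies on the minus strand at chr5:116422865-116423114, Hspb1 on the plus strand at chr5:135887669-135887918, Hspa1b on the minus strand at chr17:34959239-34959488 and Hsph1 on the minus strand at chr5:149636337-149636586.
Hspb8: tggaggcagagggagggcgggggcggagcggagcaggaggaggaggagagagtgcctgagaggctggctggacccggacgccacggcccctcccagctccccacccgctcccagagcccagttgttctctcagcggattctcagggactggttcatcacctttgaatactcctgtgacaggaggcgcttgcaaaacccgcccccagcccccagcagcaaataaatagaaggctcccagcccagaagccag
Hspb1: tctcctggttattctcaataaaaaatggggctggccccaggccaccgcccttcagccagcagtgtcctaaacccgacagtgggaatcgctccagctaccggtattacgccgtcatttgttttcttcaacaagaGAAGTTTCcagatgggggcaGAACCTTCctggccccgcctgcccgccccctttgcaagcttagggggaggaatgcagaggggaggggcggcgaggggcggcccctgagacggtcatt
Hspa1b: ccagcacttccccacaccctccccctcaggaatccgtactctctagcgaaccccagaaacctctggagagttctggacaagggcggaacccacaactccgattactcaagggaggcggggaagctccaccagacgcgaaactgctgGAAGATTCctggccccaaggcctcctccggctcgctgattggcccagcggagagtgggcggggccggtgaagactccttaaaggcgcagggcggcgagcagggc
Hsph1: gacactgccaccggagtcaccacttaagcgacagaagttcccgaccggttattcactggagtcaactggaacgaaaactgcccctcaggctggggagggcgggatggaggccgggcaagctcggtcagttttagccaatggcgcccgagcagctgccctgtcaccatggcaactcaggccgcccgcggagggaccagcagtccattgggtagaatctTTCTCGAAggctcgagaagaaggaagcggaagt
GAANNTTC was found in 6.69% and TTCNNGAA in 7.17% of the 32851 promoters of the table over the same 250 bases. Hspb1 held GAANNTTC at 117 and 97 bases before its start, Hspa1b held it at 104 bases, and Hsph1 held TTCNNGAA at 33 bases, inside the gene as annotated for the files, whose start lies further upstream. The promoter of Hspa1a differed from that of Hspa1b at 3 of 250 bases and held GAANNTTC at the same position, 104 bases before the start. The windows of Hspb8 and Dnajb1 held 0 matches to either motif. The table lists 2 starts each for Hsph1 and Dnajb1, and the start nearest to the annotated 5′ end was read. The window of the other start, 21 bases away for Hsph1 and 373 bases away for Dnajb1, held the same TTCNNGAA for Hsph1 and 0 matches for Dnajb1. A pair followed by a further alternating unit at the same spacing was in 0 of the 6 windows and 0 of these 2, and in 0.466% of all promoters for each starting direction. These matches describe letters and not binding.

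H2O2 against vehicle asks how peroxide changed the members. Of the 10 members, 1 rose and 0 fell, and 9 did not pass the test (edgeR's quasi-likelihood test, Benjamini-Hochberg adjusted p under 0.05 over all genes tested). Among all genes 15.7% passed, 7.81% as rises and 7.84% as falls, and 29.8% had an unadjusted p under 0.05, as 1 member did. The members' share was not above that of all genes. The member that rose was Hspb8, a small heat shock protein that works with the co-chaperone Bag3 in clearing damaged protein from muscle. The median log2 fold change of the 10 members was 0.13, with 7 above 0 and 3 below 0, against -0.06 over all genes, of which 45.8% were above 0. The libraries of H2O2 and vehicle did not overlap for 2 of 10 members (Hspb8 and Hsp90ab1), against 31.1% of all genes. Cycling markers summed to 106 to 141 TPM in H2O2 libraries, against 157 to 190 TPM in vehicle libraries, and 1 of 6 fell (Ccna2). Of 4 markers of undifferentiated reserve cells, Id3 and Pax7 fell, by 1.66 and 1.27 on the log2 scale. Myf5, at -1.02, and Id1, which lay the other way at 0.43, did not pass (edgeR adjusted p = 0.297 and 0.522). The 4 summed to 79.4 to 105 TPM in H2O2 libraries and 74.3 to 125 TPM in vehicle libraries. Markers of cartilage, endothelial, blood and fat cells summed to 1.07 to 2.23 TPM in H2O2 libraries and 0.05 to 0.08 TPM in vehicle libraries, and the 1 of 4 that passed the filter, Col2a1, rose by 3.49 on the log2 scale. The part of these cells in the members' values was not tested. In bulk RNA, fewer cells of a type and less RNA per cell cannot be told apart.

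**Figure D1:**
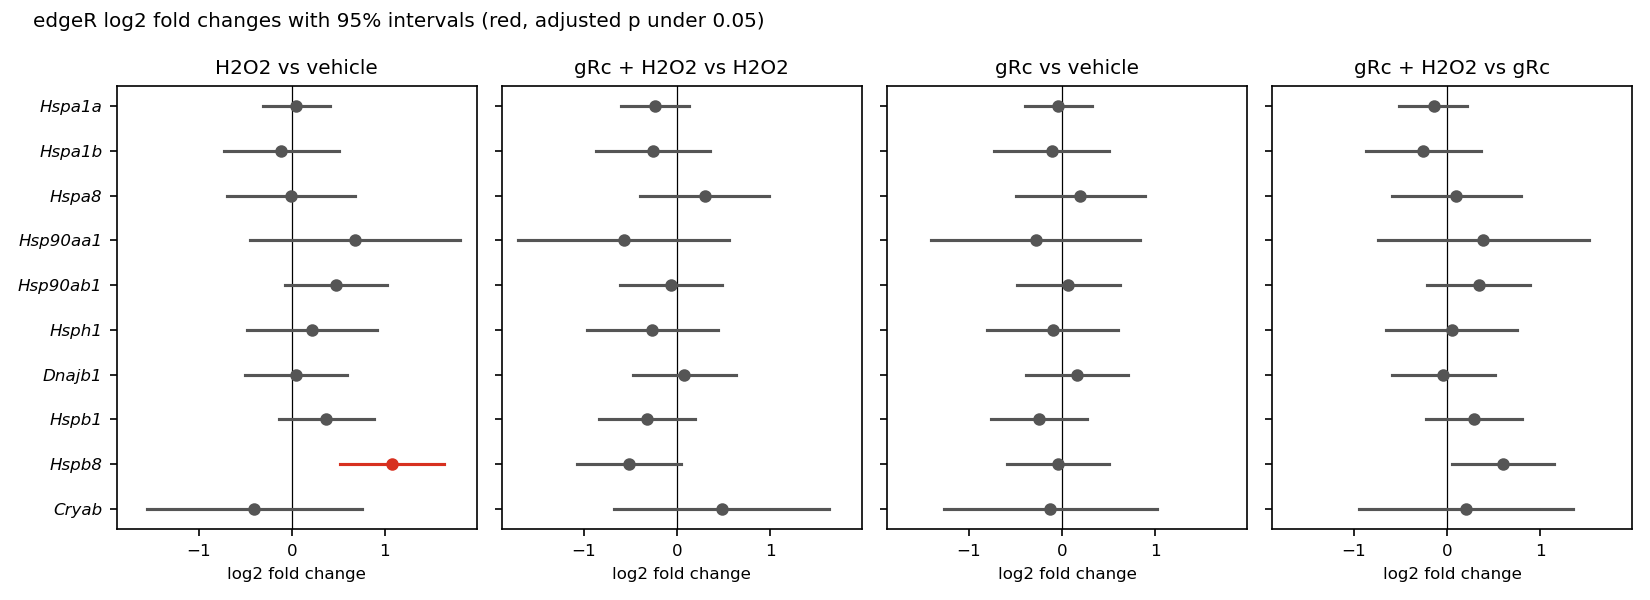
Log2 fold changes of the 10 members in 4 comparisons, with the first-named group over the second. Points are edgeR estimates, bars are 95% intervals, and red marks an adjusted p under 0.05. Hspb8 in H2O2 against vehicle, at 1.07, is the only red point, and the widest intervals are those of Hsp90aa1 and Cryab.

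Hspb8 was highest in the H2O2 group. It had 749.5, 523.9 and 622.7 CPM in H2O2 libraries, against 405.9, 269.7 and 225 CPM in vehicle libraries. Every H2O2 library lay above every vehicle library. The log2 fold change was 1.07 ± 0.25 (SE, 95% interval 0.52 to 1.63), a 2.11-fold rise (edgeR adjusted p = 0.0158). With gRc before H2O2, Hspb8 had 406.1, 428.8 and 494 CPM, and with gRc alone 301.8, 358.6 and 216.1 CPM. All 6 libraries with H2O2 lay above all 6 without it, although gRc + H2O2 replicate 1 and vehicle replicate 1 were nearly level. Leaving out H2O2 replicate 1 or 3 or vehicle replicate 2 or 3 took the edgeR adjusted p to 0.0719, 0.055, 0.0542 and 0.054, with log2 fold changes of 0.92, 1.07, 1.00 and 0.89. A fit of only the 6 libraries compared gave 1.06 and an adjusted p of 0.0766. Over all 16 alternatives the log2 fold change ran from 0.89 to 1.35 and the adjusted p from 0.00104 to 0.0766. Every count of Hspb8 was a whole number of fragments (within 0.005), so none was divided with another gene.

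The other small heat shock proteins did not pass the test. Hspb1, also known as HSP25 in the mouse, binds actin and unfolded protein, and had 754.3, 455.8 and 573 CPM in H2O2 libraries, against 607.9, 335.9 and 438.5 CPM in vehicle libraries. The groups overlapped, and within each group replicate 1 was highest and replicate 2 lowest. The difference was 0.37 ± 0.23 on the log2 scale (SE, edgeR adjusted p = 0.326). Cryab, or alpha B-crystallin, is a chaperone of desmin and actin filaments in muscle. It had 303.9, 347.4 and 274 CPM in H2O2 libraries, against 164.4, 289.9 and 767 CPM in vehicle libraries. The H2O2 libraries lay close together while vehicle libraries differed 4.67-fold between replicates 3 and 1, and the range of vehicle took in the range of H2O2. The log2 fold change of Cryab was -0.40 ± 0.52 (SE, edgeR adjusted p = 0.658), and it turned to 0.43 (adjusted p = 0.547) without vehicle replicate 3. Hspb2, the neighbour of Cryab in head-to-head orientation whose annotation overlaps it by 1030 bases on the other strand, stood at 92.9 ± 9.19 CPM with H2O2 and 79.7 ± 13.7 CPM with vehicle (SD, n = 3 each). The counts of Cryab and Hspb2 were whole numbers in all 12 libraries, so none was divided between them, and whether reads were counted by strand is not given in the sources used here.

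The HSP90 genes were higher on average with H2O2, without passing the test. Hsp90ab1 had 5076, 4970 and 5307 CPM in H2O2 libraries, against 3775, 4578 and 2699 CPM in vehicle libraries. The groups did not overlap, and the coefficient of variation was 3.37% among H2O2 libraries and 25.6% among vehicle libraries. Its log2 fold change was 0.47 ± 0.25 (SE, edgeR adjusted p = 0.231). Hsp90aa1 had 2740, 1994 and 2636 CPM in H2O2 libraries, against 2715, 1338 and 553.1 CPM in vehicle libraries. Vehicle replicate 1 reached the level of the highest H2O2 libraries and vehicle replicate 3 was the lowest of the 12 libraries. The log2 fold change of Hsp90aa1 was 0.68 ± 0.51 (SE, 95% interval -0.45 to 1.81, edgeR adjusted p = 0.417), and it ran from 0.26 without vehicle replicate 3 to 1.37 without vehicle replicate 1 (adjusted p = 0.739 and 0.0689). With vehicle replicates 1 and 3 and gRc replicate 3 left out together, the log2 fold change of Hsp90aa1 was 0.87. That fit leaves vehicle with 1 library, which is taken to vary as the other groups do. The libraries were chosen after the data were seen and include the highest and lowest vehicle values of Hsp90aa1, so the fit is not separate support. Hspb8 was 1.22 in that fit.

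The inducible HSP70 genes showed no rise with H2O2 at this precision. Hspa1a had 14.68, 11.3 and 13.74 CPM in H2O2 libraries, against 12.76, 14.01 and 11.56 CPM in vehicle libraries. These ranges overlapped almost wholly. The log2 fold change of Hspa1a was 0.05 ± 0.16 (SE), and its 95% interval of -0.31 to 0.41 was the narrowest among the 10 members (edgeR adjusted p = 0.875). Hspa1b had 67.59, 50.54 and 78.11 CPM in H2O2 libraries, against 103.2, 58.41 and 50.26 CPM in vehicle libraries. Vehicle replicate 1 was the highest of the 12 libraries. The log2 fold change of Hspa1b was -0.11 ± 0.28 (SE, 95% interval -0.73 to 0.51, edgeR adjusted p = 0.84), and without vehicle replicate 1 it was 0.26 (adjusted p = 0.439).

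Hspa1a and Hspa1b are near copies, and the counting had to divide reads between them. Of the windows of 100 bases in the Hspa1a transcript, 47.1% occurred unchanged in Hspa1b, and 4.67% occurred in Hspa1l, the third gene of the cluster. Hspa1a, the member with the fewest reads (an expected count of 230 in vehicle replicate 1), had fractional counts in all 12 libraries, and its share of the pair ran between 11% (vehicle replicate 1) and 19.3% (vehicle replicate 2). Summed into 1 gene, the pair stood at 78.7 ± 15.3 CPM with H2O2 and 83.4 ± 28.7 CPM with vehicle (SD, n = 3 each). Its log2 fold change was -0.08 ± 0.25 (SE, edgeR adjusted p = 0.865). Hspa1l stood at 2.03 ± 0.589 CPM with H2O2 and 2.83 ± 0.9 CPM with vehicle. A gene annotated on the opposite strand of Hspa1a, Gm20481, had 0 counts in all 12 libraries.

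The constitutive HSP70 and its partners did not pass the test either. Hspa8 had 1357, 1611 and 1283 CPM in H2O2 libraries, against 706.1, 1621 and 1941 CPM in vehicle libraries, a log2 fold change of -0.01 ± 0.31 (SE, 95% interval -0.69 to 0.68, edgeR adjusted p = 0.993). The vehicle libraries spanned a 2.75-fold range that took in all H2O2 libraries. The small nucleolar RNA genes, Snord14c, Snord14d and Snord14e, lie within Hspa8 on the same strand. Hsph1, the cytosolic HSP110, had 265.4, 214.5 and 246.7 CPM in H2O2 libraries, against 301.5, 204.6 and 118.7 CPM in vehicle libraries. Its log2 fold change was 0.22 ± 0.32 (SE, edgeR adjusted p = 0.697), and vehicle replicates 1 and 3 lay above and below all H2O2 libraries. Dnajb1, the J-domain partner of HSP70 in refolding, had 52.81, 49.45 and 49.81 CPM in H2O2 libraries, against 31.17, 46.34 and 69.55 CPM in vehicle libraries. Here too the vehicle libraries spread around the H2O2 libraries, and the log2 fold change was 0.05 ± 0.25 (SE, edgeR adjusted p = 0.926).

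**Figure D2:**
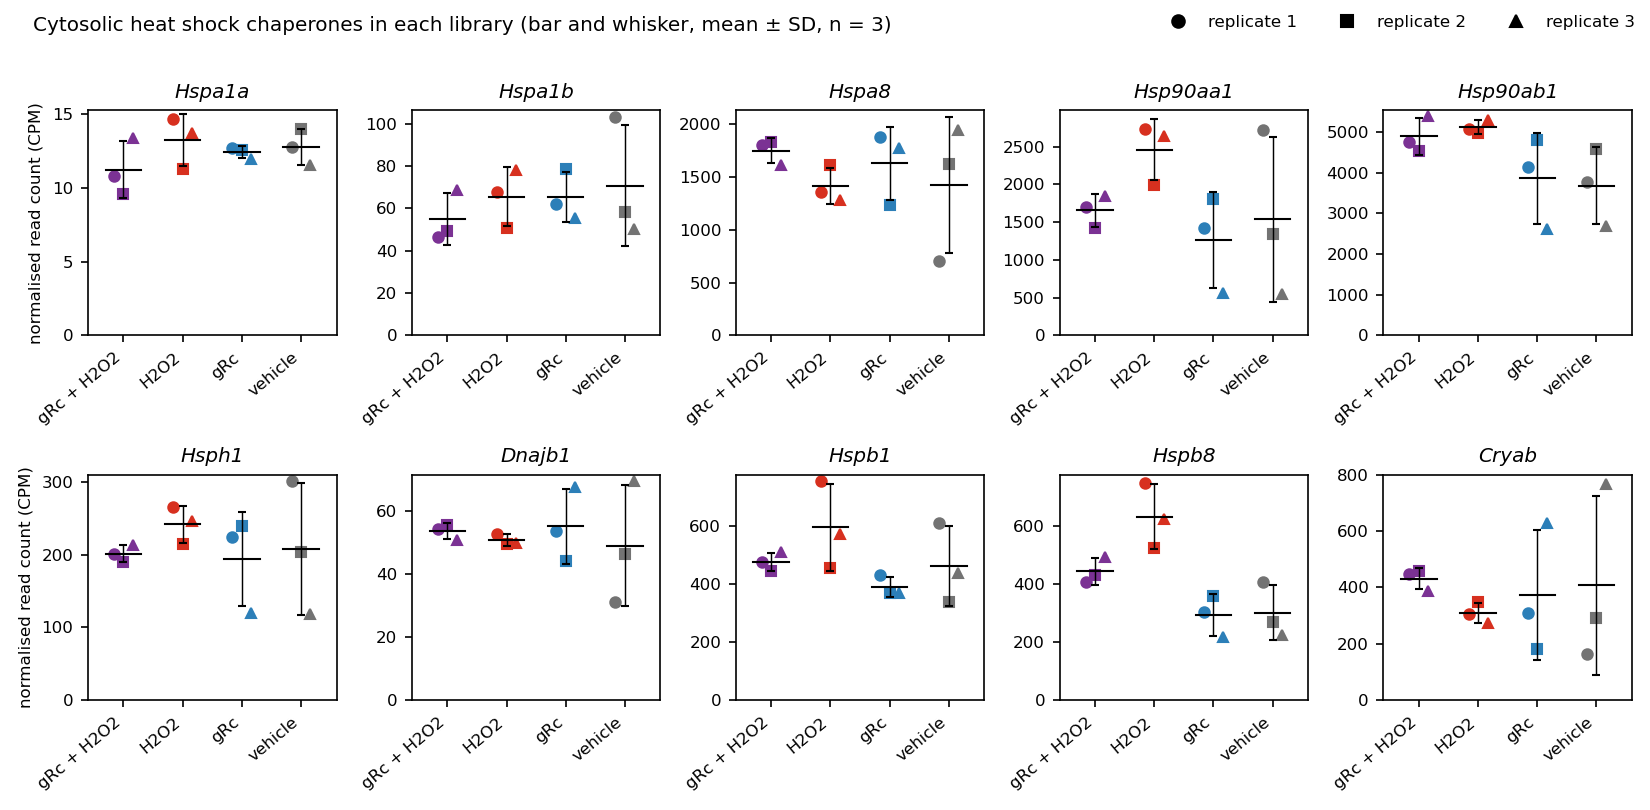
Normalised read counts (CPM) of the 10 members in each library, by group from gRc + H2O2 to vehicle, with the replicate number as the symbol. Bars are means and whiskers SD (n = 3). Hspb8 lies at 523.9 to 749.5 CPM with H2O2, above the vehicle libraries at 225 to 405.9 CPM, while Cryab in vehicle spans 164.4 to 767 CPM.

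gRc + H2O2 against H2O2 asks what gRc before peroxide changed. None of the 10 members passed the test, at an adjusted or an unadjusted p under 0.05, with edgeR, and 0 passed with DESeq2. Among all genes 0 passed (0%), 0.822% had an unadjusted p under 0.05, and DESeq2 called 2 genes. The median log2 fold change of the members was -0.24, with 3 above 0 and 7 below 0, against 0 over all genes. In CPM, libraries of the groups did not overlap for 5 of 10 members, Hspb8, Hsp90aa1, Hsph1, Hspa8 and Cryab, against 15.3% of all genes. In TPM, which takes effective length into account, Hsp90aa1, Hsph1 and Hspa8 did overlap. Hsph1 had 148.6, 124.4 and 125.2 TPM in gRc + H2O2 libraries, against 139.5, 137 and 125.2 TPM in H2O2 libraries. A limma fit on log2 TPM put its log2 fold change at -0.02. Hspb8 had 406.1, 428.8 and 494 CPM in gRc + H2O2 libraries, below the 749.5, 523.9 and 622.7 CPM of H2O2 libraries. Its log2 fold change was -0.51 ± 0.25 (SE, 95% interval -1.07 to 0.04, unadjusted p = 0.0658 and adjusted p = 0.922 by edgeR), the smallest p of the members. Over 16 alternatives it ran from -0.63 to -0.38.

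Hsp90aa1 had 1707, 1421 and 1842 CPM in gRc + H2O2 libraries, against 2740, 1994 and 2636 CPM in H2O2 libraries. Every gRc + H2O2 library was lower, with a log2 fold change of -0.57 ± 0.51 (SE, edgeR adjusted p = 0.922). Hsph1 lay at 201.7, 190.4 and 213.1 CPM in gRc + H2O2 libraries, just under the 265.4, 214.5 and 246.7 CPM of H2O2 libraries, and its log2 fold change was -0.26 ± 0.32 (SE, adjusted p = 0.922). Hspa8 and Cryab lay the other way. Hspa8 had 1802, 1830 and 1617 CPM in gRc + H2O2 libraries, against 1357, 1611 and 1283 CPM in H2O2 libraries, a log2 fold change of 0.30 ± 0.31 (SE, edgeR adjusted p = 0.922). Cryab had 446.4, 459.4 and 387 CPM in gRc + H2O2 libraries, against 303.9, 347.4 and 274 CPM in H2O2 libraries, which is 0.48 ± 0.52 on the log2 scale (SE, adjusted p = 0.922). For both, every gRc + H2O2 library was the higher, for Hspa8 by little at the edge (1617 CPM in gRc + H2O2 replicate 3 and 1611 CPM in H2O2 replicate 2), and the test used the spread of all 4 groups. The measure of GC content differed in the same libraries, at 0.33, 0.44 and -0.19 in gRc + H2O2 and -0.33, 0.21 and -0.36 in H2O2 on the log2 scale. With a GC offset the log2 fold changes were -0.65 for Hsp90aa1, -0.30 for Hsph1, -0.48 for Hspb8, 0.25 for Hspa8 and 0.52 for Cryab. That of Hspb1, which overlapped, went from -0.32 to -0.11. No member passed with or without the offset, so the calls cannot tell the part of GC content.

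The other 5 members overlapped between these groups in CPM. Hspa1b had 46.32, 49.33 and 68.8 CPM in gRc + H2O2 libraries, against 67.59, 50.54 and 78.11 CPM in H2O2 libraries. Hspa1a had 10.8, 9.563 and 13.39 CPM in gRc + H2O2 libraries, against 14.68, 11.3 and 13.74 CPM in H2O2 libraries. Their sum had a log2 fold change of -0.25 ± 0.25 (SE, edgeR adjusted p = 0.922). Hspb1 stood at 475 ± 32 CPM with gRc + H2O2 and 594 ± 150 CPM with H2O2, Hsp90ab1 at 4894 ± 451 CPM with gRc + H2O2 and 5118 ± 172 CPM with H2O2, and Dnajb1 at 53.6 ± 2.56 CPM with gRc + H2O2 and 50.7 ± 1.85 CPM with H2O2 (SD, n = 3 each).

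gRc against vehicle asks what gRc alone changed. None of the 10 members passed (edgeR, and likewise 0 at an unadjusted p under 0.05 and 0 with DESeq2), against 0% of all genes, of which 0.499% had an unadjusted p under 0.05. The groups overlapped for all 10 members, and 1.61% of all genes did not overlap. Log2 fold changes ran from -0.28 ± 0.51 for Hsp90aa1 to 0.20 ± 0.31 for Hspa8 (SE), with a median of -0.07 against 0 over all genes. The libraries numbered 3 were close: Hsp90aa1 had 560.7 CPM in gRc replicate 3 and 553.1 CPM in vehicle replicate 3, Hsph1 had 119.9 CPM in gRc replicate 3 and 118.7 CPM in vehicle replicate 3, and Hsp90ab1 had 2625 CPM in gRc replicate 3 and 2699 CPM in vehicle replicate 3. These were the lowest values of each gene. Deviations from the group means correlated across genes for each number in these groups, so the numbers were taken to pair them, and with the number as a block in a fit of these 6 libraries Hsp90aa1 was at -0.16 and 0 members passed.

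gRc + H2O2 against gRc asks the effect of H2O2 in the presence of gRc. None of the 10 members passed with edgeR or DESeq2, against 15.7% of all genes (7.57% rose and 8.15% fell), and 1 member, Hspb8, had an unadjusted p under 0.05, as did 28.2% of all genes. Hspb8 had 406.1, 428.8 and 494 CPM in gRc + H2O2 libraries, against 301.8, 358.6 and 216.1 CPM in gRc libraries. The groups did not overlap, and the log2 fold change was 0.60 ± 0.25 (SE, 95% interval 0.05 to 1.15, unadjusted p = 0.0359 and adjusted p = 0.143 by edgeR). Hspb1 was the other member without overlap, against 38.7% of all genes, with 474.3, 443.7 and 507.6 CPM in gRc + H2O2 libraries and 428.8, 368.4 and 368.8 CPM in gRc libraries. On the log2 scale it differed by 0.29 ± 0.23 (SE, adjusted p = 0.468). The members' median was 0.15, against -0.04 over all genes. Cryab had 446.4, 459.4 and 387 CPM in gRc + H2O2 libraries, against 309.9, 180.5 and 628.7 CPM in gRc libraries, where replicate 3 alone lay above them. Its log2 fold change was 0.21 ± 0.52 (SE, adjusted p = 0.841). With gRc replicate 3 and vehicle replicates 1 and 3 left out together it was 0.80. That fit was chosen after the data were seen and drops the very gRc library that lay above, so it is not separate support.

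Whether the H2O2 difference itself differed with gRc was tested as an interaction, over all 12 libraries, as the difference between gRc + H2O2 against gRc and H2O2 against vehicle. It passed for 0 of 10 members and 0% of all genes (edgeR, with 0 members and 0.586% of genes at an unadjusted p under 0.05, and DESeq2 calling 0 members and 1 gene). For Hspb8 the H2O2 log2 fold change was 0.60 with gRc and 1.07 without, a difference of -0.47 ± 0.35 (SE, 95% interval -1.25 to 0.31, adjusted p = 1). That Hspb8 passed in 1 comparison and not in the other is therefore not shown to be a difference between them.

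Vehicle libraries had the largest coefficient of variation of the 4 groups for 8 of 10 members. The share of all genes for which this held was not counted. Vehicle libraries also varied more over all genes, with a median SD of log2 CPM of 0.42 in vehicle and 0.32 within groups. The vehicle SD of the members exceeded that of 9.91% (Hspa1a) to 92.2% (Hsp90aa1) of genes. It lay near the middle for Hsp90ab1 (46.1%), Hspb1 (51.4%) and Hspb8 (52.3%). The members whose coefficient of variation was not largest in vehicle were Hsp90ab1 (29% in gRc libraries and 25.6% in vehicle libraries) and Hspa1a (17.4% in gRc + H2O2 libraries and 9.59% in vehicle libraries). The SD within groups on the log2 scale was 0.74 for Hsp90aa1 and 0.73 for Cryab, larger than for 91.2% and 90.6% of all genes, whose median was 0.32. For Hspa1a it was 0.17, larger than for 16% of genes. The coefficient of variation of Cryab was 12% in H2O2 libraries and 78.1% in vehicle libraries, that of Hsp90aa1 16.4% with H2O2 and 71.3% with vehicle, and that of Hspa8 12.1% with H2O2 and 45% with vehicle. In CPM, vehicle replicate 1 held 4.91 times the Hsp90aa1, 2.54 times the Hsph1 and 2.05 times the Hspa1b of vehicle replicate 3. Vehicle replicate 3 held 4.67 times the Cryab, 2.75 times the Hspa8 and 2.23 times the Dnajb1 of vehicle replicate 1. Hsp90aa1, Hsph1 and Hspa1b thus stood opposite Cryab, Hspa8 and Dnajb1 within 1 group of like-treated libraries.

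**Figure D3:**
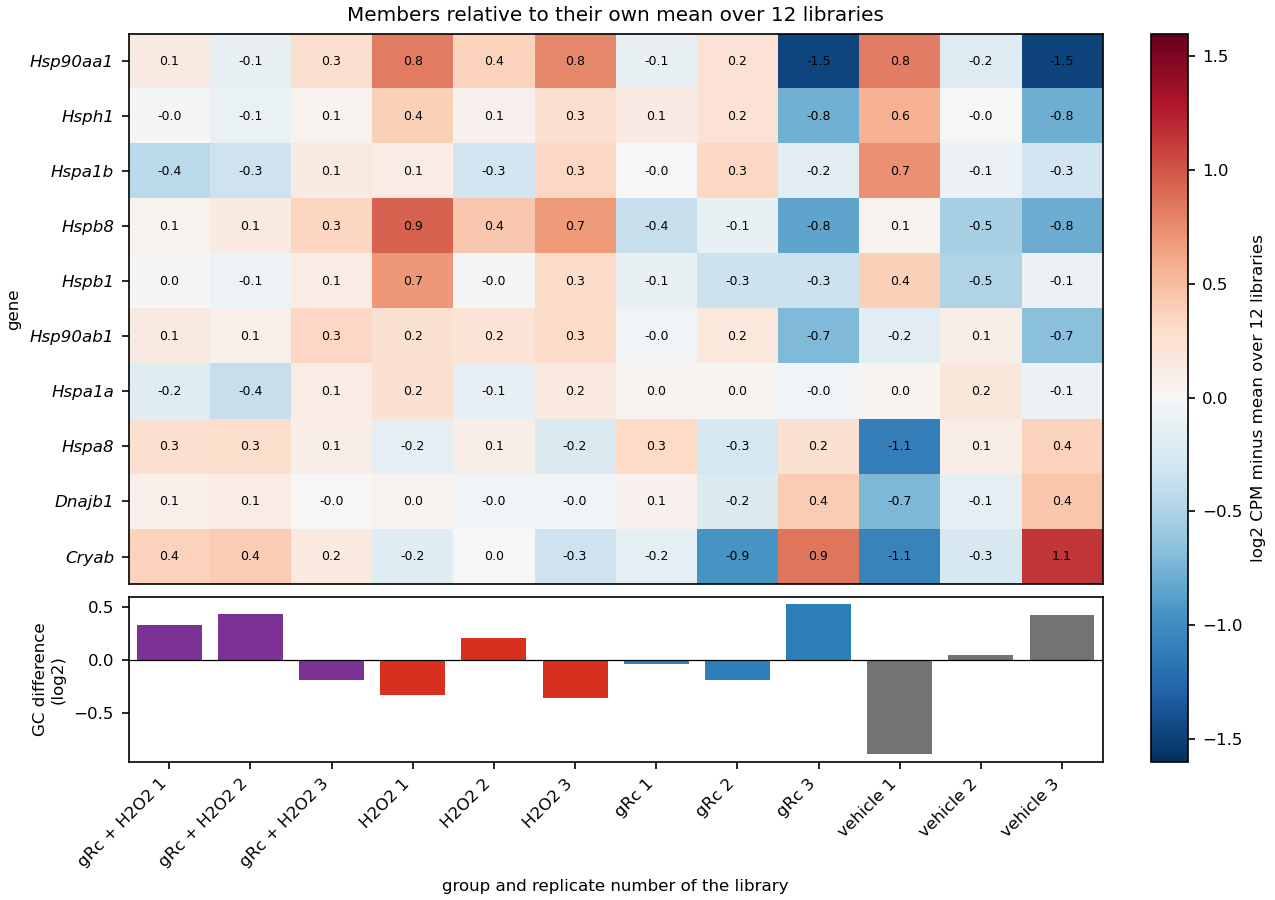
Upper panel, log2 CPM of each member in each library relative to its own mean over the 12 libraries. Lower panel, log2 difference between genes of low and of high GC content, relative to the mean of the libraries, coloured by group. Vehicle replicate 1 is low in Cryab, Hspa8 and Dnajb1 and high in Hsp90aa1, Hsph1 and Hspa1b, and vehicle replicate 3 and gRc replicate 3 are the other way round.

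The division was also read over all 12 libraries. They include the vehicle libraries that first showed it, so this reading is not separate support. These correlations describe 12 libraries that share their groups and differ in depth and composition, and they carry no test. Of 45 pairs of members, 24 had a Pearson r above 0 and 21 below 0. Hsp90aa1 and Hsph1 gave r = 0.963 (Spearman's rho 0.853, and r = 0.824 without the 2 libraries farthest from the median of Hsp90aa1). Dnajb1 and Cryab gave r = 0.911 (rho 0.909, and 0.885 without 2 libraries), and Hsph1 and Cryab r = -0.892 (rho -0.888, and -0.801). Dnajb1, the J-domain partner, gave r = -0.762 with Hspa1b (rho -0.72, and -0.394 without the 2 farthest libraries of Hspa1b). Hsp90ab1 with Hsp90aa1 gave r = 0.838 (rho 0.657), and 0.153 without the 2 farthest libraries of Hsp90aa1. Hsp90aa1 with Cryab gave r = -0.782 (rho -0.636), and -0.449 without these 2 libraries. Hsp90aa1 with Dnajb1 gave r = -0.738 (rho -0.594), and -0.426 without them.

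The division went with the composition of the libraries. The measure of GC content correlated at r = -0.932 with Hspa1b, -0.835 with Hsph1 and -0.761 with Hsp90aa1, and at 0.881 with Hspa8, 0.847 with Cryab and 0.839 with Dnajb1. Without the 2 libraries farthest from its median these were -0.930, -0.761 and -0.696, and 0.805, 0.733 and 0.581. Its correlation with Hspb8 was -0.498, over values that include the difference of Hspb8 with H2O2. In deviations from the group means, Hspb8 gave r = 0.919 with Hsp90aa1, 0.916 with Hsph1 and 0.875 with Hspa1b. In the same deviations Hspb8 gave -0.885 with Cryab, -0.834 with Dnajb1 and -0.828 with Hspa8. Without that subtraction, r over the 12 libraries was 0.864 with Hsp90aa1, 0.718 with Hsph1 and 0.293 with Hspa1b. It was -0.416 with Cryab, -0.352 with Dnajb1 and -0.345 with Hspa8. The deviations were not read without the farthest libraries. Hspb8 was also 1.8 times as high in vehicle replicate 1 as in vehicle replicate 3. The share of mitochondrially encoded counts gave r between -0.927 for Hsph1 and 0.925 for Cryab, with -0.318 for Hspb1 and -0.484 for Hspb8 nearest to 0. Without the 2 libraries farthest from its median, Hsph1 was at -0.763, Cryab at 0.848 and Hspb8 at 0.175, and Hsp90aa1 was at -0.367, against -0.822 over all 12. The GC content of the genes themselves was 43.7% for Hsp90aa1, 47.3% for Hsph1, 58.1% for Hspa1b, 45.9% for Hspa8, 52.7% for Dnajb1 and 54.4% for Cryab. The part of library composition in the members' values was not tested.

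The genes whose pattern was most like Hsp90aa1 over the 12 libraries, by Pearson r of log2 CPM among all 14838 genes, were Kat14 (0.995), Gpat4 (0.993), Hnrnpab (0.993), Fchsd1 (0.992) and Lrrc47 (0.992). Those most like Cryab were 1810055G02Rik (0.984), Rpl24 (0.983), Itpa (0.982) and Nr1h2 (0.978). Those most like the sum of Hspa1a and Hspa1b were Rabep2 (0.965), Slc38a10 (0.955), Prpf40b (0.954), 2700081O15Rik (0.954) and Col4a2 (0.953). No member or listed co-chaperone was among these 14 genes.

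Genes that work with the members were read from the same fit. Among 16 J-domain co-chaperones of the cytosol that could be tested, of 17 listed, 4 rose and 0 fell with H2O2, with a median log2 fold change of 0.35, where 7.81% of all genes rose and 7.84% fell and the median was -0.06. Whether a list differs from other genes was not tested, for this list or those that follow. Dnajb4, a muscle-expressed relative of Dnajb1, stood at 117 ± 10.4 CPM with H2O2 and 70.4 ± 6.46 CPM with vehicle (SD, n = 3 each). The log2 fold change was 0.73 ± 0.13 (SE, edgeR adjusted p = 0.00358). Dnajb6, a suppressor of protein aggregation whose human gene is mutated in a limb-girdle muscular dystrophy, was at 338 ± 16.8 CPM with H2O2 and 211 ± 22.3 CPM with vehicle, 0.68 ± 0.16 (adjusted p = 0.0142). Dnaja2, which serves HSP70 in refolding, rose by 0.64 and Dnajc2, a chaperone of the ribosome, by 1.08 (adjusted p = 0.0106 and 0.00721). In gRc + H2O2 against gRc, 5 of the 16 rose, where 7.57% of all genes did: these 4 (Dnajb4 by 1.09, Dnaja2 by 0.70, Dnajc2 by 0.79 and Dnajb6 by 0.55) and Dnaja4 by 0.43 (adjusted p = 0.0339). The libraries of Dnajb1 itself averaged 50.7 CPM with H2O2 and 49.0 CPM with vehicle.

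Of 19 HSP90 co-chaperones, 2 rose and 0 fell with H2O2, a share near the 7.81% of all genes, with a median of 0.22 and 16 above 0. Ptges3, the p23 protein that stabilises the closed form of HSP90, stood at 343 ± 29.3 CPM with H2O2 and 183 ± 58.5 CPM with vehicle, a log2 fold change of 0.91 ± 0.25 (SE, edgeR adjusted p = 0.0288). Ppid, the cyclophilin 40 that docks on HSP90, stood at 172 ± 32.8 CPM with H2O2 and 91.9 ± 32.9 CPM with vehicle, 0.91 ± 0.27 (adjusted p = 0.0418). In gRc + H2O2 against gRc, Ppid rose by 0.91 (adjusted p = 0.0412), and Ptges3 was at 0.78 (adjusted p = 0.0537). Nudc and Ahsa1, the activator of the HSP90 ATPase, were at 0.63 and 0.37 with H2O2 against vehicle (adjusted p = 0.142 and 0.212).

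Of 8 other HSP70 and HSP110 genes, 0 rose and 1 fell with H2O2, where 7.84% of all genes fell. It was Hspa12a, a distant relative, at 14.4 ± 0.651 CPM with H2O2 and 26.4 ± 5.94 CPM with vehicle (log2 fold change -0.88 ± 0.18, SE, edgeR adjusted p = 0.00803). It also fell in gRc + H2O2 against gRc, by 1.17 (adjusted p = 0.00189). Hspa4, an HSP110 relative of Hsph1, was at 0.53 with H2O2 (adjusted p = 0.0707). Of 10 nucleotide exchange and degradation co-chaperones, 0 passed, and Bag3, the partner of Hspb8, was at 142 ± 18.7 CPM with H2O2 and 126 ± 13.4 CPM with vehicle (0.16 ± 0.14, SE, adjusted p = 0.461). Of 5 other small heat shock proteins tested, of 7 listed, 0 passed. Hspb3 had the smallest p, with a log2 fold change of 0.43 ± 0.24 (SE, edgeR adjusted p = 0.254). Hspb7 stood at 118 ± 10.9 CPM with H2O2 and 131 ± 16.6 CPM with vehicle. Of 4 genes tested among heat shock factors and their binding protein, of 5 listed, 0 passed. Hsbp1, the binding protein, had the smallest p, at 84.3 ± 9.88 CPM with H2O2 and 138 ± 68.5 CPM with vehicle (-0.71 ± 0.30, SE, edgeR adjusted p = 0.136). Hsf1 was at 47.6 ± 1.24 CPM with H2O2 and 50.6 ± 14.7 CPM with vehicle (-0.09 ± 0.23, SE, adjusted p = 0.842).

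**Figure D4:**
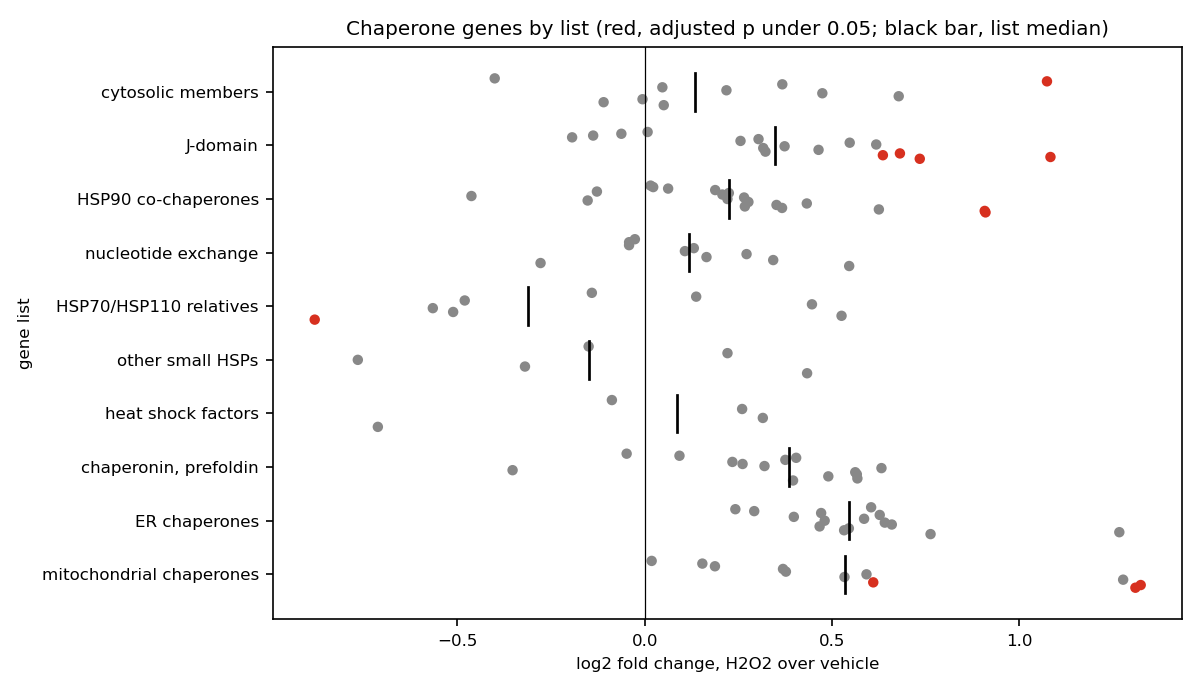
Log2 fold changes with H2O2 over vehicle for the 10 members and for 9 lists of related genes, 1 point per gene tested. Red marks an edgeR adjusted p under 0.05 and black bars are list medians. The members centre on 0.13, and the lists of endoplasmic reticulum and mitochondrial chaperones on 0.55 and 0.53, the latter with the proteases Lonp1 and Clpp.

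Chaperones of other compartments are given for comparison, and differences between lists were not tested. Of 15 endoplasmic reticulum chaperones, 15 had a log2 fold change above 0 with H2O2 (median 0.55) and 0 passed. Hspa5, the HSP70 of that compartment, stood at 3600 ± 720 CPM with H2O2 and 1490 ± 753 CPM with vehicle (1.27 ± 0.45, SE, edgeR adjusted p = 0.0857). Of 11 genes in the list of mitochondrial chaperones, which also holds the proteases Lonp1 and Clpp, 3 rose and 0 fell (median 0.53). Of all genes 7.81% rose, and their median was -0.06. Hspa9, the mitochondrial HSP70, was at 1960 ± 180 CPM with H2O2 and 784 ± 228 CPM with vehicle, 1.32 ± 0.28 on the log2 scale (SE, adjusted p = 0.00985), Hspd1, the chaperonin HSP60, rose by 1.31 (adjusted p = 0.00751) and Dnaja3, their J-domain partner, by 0.61 (adjusted p = 0.01). Hspa8, the cytosolic counterpart of Hspa9 and Hspa5, was at -0.01 in the same fit. Of 14 chaperonin and prefoldin genes of the cytosol, 12 were above 0 and 0 passed. In gRc + H2O2 against H2O2, 0 genes passed in each of these lists.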

How the data were processed

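The members and lists were chosen with earlier results of these data known. Per the labels and the study's methods, the authors trimmed reads with TrimGalore, aligned them with STAR 2.7.3a to GRCm38 and quantified genes of GRCm38.86 with RSEM 1.3.3, which splits a read that fits several genes. The deposited expected counts, not normalised, were rounded to whole numbers and tested. The deposited TPM and effective lengths gave levels per length and 1 alternative, and the deposited FPKM were not used. Of 14838 genes kept by filterByExpr, all were fitted in 4 group means over 12 libraries with edgeR 4.0.16 (TMM, quasi-likelihood F test, R 4.3.3), with p-values adjusted over all genes by the Benjamini-Hochberg method and a threshold of 0.05. SEs were derived from the F statistics. Other fits used DESeq2 1.42.0, limma 3.58.1 on log2(TPM + 0.5), other size factors and filters, the groups compared alone, a replicate block, a GC offset (spline, 5 degrees of freedom) and libraries left out. Gene positions are of GRCm38 and promoters from RefSeq's GRCm38.p6 table. All 10 members are described in every comparison. Of each list, up to 4 genes with the smallest p in a comparison are named, with the 5 genes most like Hsp90aa1, Cryab and the Hspa1 pair (1 of them is not reported here), 6 state markers, and Hspa1l and Hspb2 as a near copy and a neighbour. Dnajb6, Ptges3 and Hspb7 are also given in a comparison where they follow in that order. Scripts were tested on simulated data. In gRc and vehicle, same-numbered libraries deviated together (correlations across genes 0.46, 0.271 and 0.86), which was taken as a pairing. In gRc + H2O2 and H2O2 (0.08, 0.402 and 0.309) and the other comparisons it was not.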

Additional observations from a re-analysis of the deposited data

How the results depend on the processing

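In H2O2 against vehicle, a fit of only the 6 libraries compared called 0 members and 739 genes. DESeq2 called 2 genes in gRc + H2O2 against H2O2 and 1 in the interaction. limma on log2 TPM called 1492 genes in H2O2 against vehicle and 1459 in gRc + H2O2 against gRc. A fit without 3 libraries (vehicle 1, vehicle 3 and gRc 3), chosen after seeing the data, called 2 members (Hspb8 and Hsp90aa1, at 0.87) in H2O2 against vehicle, and 1 member (Cryab, at 0.80) and 5120 genes in gRc + H2O2 against gRc. Leaving out 1 library at a time gave 0 to 1 members and 1290 to 3123 genes in H2O2 against vehicle (3123 without vehicle replicate 1), and 1205 to 2029 genes in gRc + H2O2 against gRc, where all 6 fits gave fewer genes than the 2332 of the full fit. Over all alternatives, 791 member log2 fold changes kept their direction and side of the threshold, and 72 changed sign. Another 2 became calls, Hsp90aa1 and Cryab in the fit without 3 libraries. The 5 that ceased to be calls were all Hspb8 in H2O2 against vehicle. The cause was not tested.

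The changes of sign were all in values that did not pass the test. In H2O2 against vehicle, leaving out 1 library at a time gave log2 fold changes of -0.04 to 0.15 for Hspa1a, -0.32 to 0.26 for Hspa1b, -0.34 to 0.27 for Hspa8, -0.08 to 0.58 for Hsph1, -0.20 to 0.37 for Dnajb1 and -0.78 to 0.43 for Cryab. In gRc against vehicle it gave -0.12 to 0.03 for Hspa1a, -0.32 to 0.26 for Hspa1b, -0.14 to 0.47 for Hspa8, -0.69 to 0.42 for Hsp90aa1, -0.13 to 0.28 for Hsp90ab1, -0.39 to 0.26 for Hsph1, -0.08 to 0.49 for Dnajb1, -0.23 to 0.24 for Hspb8 and -0.73 to 0.70 for Cryab. In gRc + H2O2 against gRc it gave -0.07 to 0.21 for Hspa8, -0.20 to 0.22 for Hsph1, -0.18 to 0.14 for Dnajb1 and -0.12 to 0.81 for Cryab. In the interaction it gave -0.52 to 0.06 for Hspa1b, -0.18 to 0.44 for Hspa8, -0.99 to 0.12 for Hsp90aa1, -0.35 to 0.06 for Hsp90ab1, -0.53 to 0.12 for Hsph1, -0.42 to 0.16 for Dnajb1, -0.32 to 0.14 for Hspb1 and -0.22 to 1.21 for Cryab. With the 3 libraries left out together, H2O2 against vehicle gave -0.09 for Hspa1a, 0.16 for Hspa1b and 0.09 for Cryab. In that fit, gRc against vehicle gave 0.27 for Hspa1b, -0.06 for Hspa8, 0.27 for Hsp90aa1, -0.03 for Hsp90ab1, 0.18 for Hsph1, 0.25 for Hspb1 and 0.29 for Hspb8, gRc + H2O2 against gRc gave -0.21 for Hsph1 and 0.13 for Dnajb1, and the interaction of Dnajb1 was 0.0013. limma gave -0.0034 for Hspa1a in H2O2 against vehicle, 0.01 for Hsp90ab1 in gRc + H2O2 against H2O2, 0.03 for Hspa1a, 0.01 for Hspa1b, 0.05 for Hspb8 and 0.06 for Cryab in gRc against vehicle, and 0.02 for the interaction of Hsph1. The GC offset gave 0.03 for Hspa1a in gRc against vehicle. Summed with Hspa1b, Hspa1a was at -0.08 in H2O2 against vehicle.

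With the replicate block, Hspa8 was at 0.03 in H2O2 against vehicle, and the block changed no call of a member. With the block and the GC offset, Hspa8 was at 0.02 in that comparison, Hspa1a at 0.03 in gRc against vehicle, and the interaction of Hspb1 at 0.01. Same-numbered libraries correlated in their deviations at 0.44, 0.294 and -0.283 in H2O2 and vehicle. In gRc + H2O2 and gRc the correlations were 0.021, -0.496 and -0.55. In gRc + H2O2 and H2O2, the 0.402 and 0.309 of replicates 2 and 3 lay above the 0.271 accepted for replicate 2 in gRc and vehicle. No pairing was taken outside gRc and vehicle, and these values do not show that there was none.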
